A study of Rattus norvegicus with 210 samples.

Results

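Expression in the mediobasal hypothalamus (MBH) was compared between 2 groups of adult female Sprague-Dawley rats, whose mothers had been given either ketoconazole (KTZ) at 3 mg/kg bw/day, the group K3, or corn oil alone, the control group. Both groups were sampled on postnatal day (PND) 90. The members are the 5 K3 and the 5 control libraries of the MBH at that age, taken by their labels, 10 of 210 libraries in all. Dosing began on gestation day 7, paused on the day of birth and ended at PND 22, so that the offspring were exposed through the mother, who was dosed daily by mouth, and no longer at the time of sampling. Libraries of the MBH and the preoptic area (POA) exist for females at PND 22, 42 and 90 in 7 groups of 5: control, KTZ at 3, 6 and 12 mg/kg bw/day (K3, K6 and K12) and the synthetic estrogen diethylstilbestrol (DES) at 3, 6 and 12 µg/kg bw/day (D3, D6 and D12). Other groups are used here only where they show how these 10 libraries stand. The labels do not tie libraries to litters, nor do they give an estrous stage, so p-values measure the spread between these libraries.

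The MBH lies at the base of the forebrain around the third ventricle and holds the arcuate and ventromedial nuclei. Its kisspeptin neurons drive the pulses of gonadotropin-releasing hormone (GnRH), its agouti-related peptide and proopiomelanocortin neurons set food intake, and glial tanycytes line the ventricle beside it. Glia of the rodent hypothalamus go on maturing after weaning, as precursors leave the cell cycle and turn into oligodendrocytes that make myelin. KTZ is an azole antifungal that blocks fungal sterol demethylation and also inhibits cytochrome P450 enzymes of mammalian steroid synthesis.

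The number of reads counted on genes was 22416287, 19670500, 18128066, 16919455 and 18271370 in control replicates 1 to 5 and 16091865, 17185228, 16365644, 22999078 and 16786615 in K3 replicates 1 to 5. Levels of genes are in CPM, which scales counts to a common library total, and values of single libraries stand in replicate order. No pair of libraries of a group agreed within sampling noise.

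The MBH libraries labelled control scored low on an age profile taken from the POA. In the POA, none of whose libraries is among these 10, the 100 transcripts most higher and the 100 most lower at PND 90 than at PND 22 in control were taken, and each library was given a score, the mean log2(CPM + 0.5) of the first set minus that of the second. POA libraries with mammillary transcripts at a mean log2 under 1 scored -1.41 to -0.87 at PND 22, -0.06 to 0.74 at PND 42 and 0.99 to 1.81 at PND 90. This leaves out 1 library at PND 22, 1 at PND 42 and 9 of 35 at PND 90, namely all 5 of K12 and 4 of K6, and those 9 scored -1.10 to -0.70. The MBH libraries labelled K3 at PND 90 scored 1.25 to 1.75, within the range of the POA libraries kept at PND 90. A high score in the MBH did not mark PND 90 alone, since the 25 libraries of K3, K6, D3, D6 and D12 at PND 42 scored 1.16 to 2.03, while those of control at PND 42 scored 0.25 to 0.81 and those of K12 -1.12 to 1.77. Of these 25, the 17 with mammillary transcripts at a mean log2 of 1 or more scored 1.26 to 2.03. In all, 12 MBH libraries lay under 1 in mammillary transcripts (0.04 to 0.51), at the level of most of the POA: 5 of K6, 3 of K3 and 2 of K12 at PND 42, and 1 each of D3 and D12 at PND 22. The MBH libraries labelled control at PND 90 scored -1.12 to -0.70, beside the MBH control libraries of PND 22 at -1.0 to -0.77. Thus all 5 control libraries lay below every K3 library. The labels give the same animal numbers to the MBH and the POA libraries of control, and likewise of K3, at PND 90, and the POA control libraries of those numbers scored 1.39 to 1.76, in the range of PND 90, though they are among the libraries that chose the transcripts. Brain pieces under 1 animal number therefore gave unlike age scores in the control group, which was not the case in K3 (POA 1.05 to 1.5). The animal number of control replicate 1 is shared with K3 replicate 1 of PND 22 in both tissues, so the numbers were not unique across ages. D3 and D6 at PND 90 also lay low, at -0.98 to -0.78 and -0.94 to -0.67, D12 held both low and high libraries (-0.83 to 1.81), and K6 and K12 lay high, at 1.06 to 2.05 and 1.33 to 1.61. In this comparison the label of exposure and the age profile therefore cannot be told apart. An exchange of MBH samples or labels between ages cannot be told apart from a difference of exposure by these files either, and every value of K3 against control below carries this limit. In what follows, control and K3 are the labels of the libraries, and rose and fell mean higher and lower in the libraries labelled K3. Of the 100 score transcripts higher at PND 90, 88 rose, and of the 100 lower, 94 fell. They include the 10 largest increases and 10 largest decreases below, except Col26a1, Col3a1, Col1a1, Mfrp and Avp. Gpr17, Enpp6, Casr, Ugt8, Sirt2, Mki67, Top2a, Kcnj8, Abcc9, Rplp1, Tspo, Kiss1, Gnrh1 and Mkrn3 are among them too. Their differences are therefore not separate from the gap in score.

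**Figure D1:**
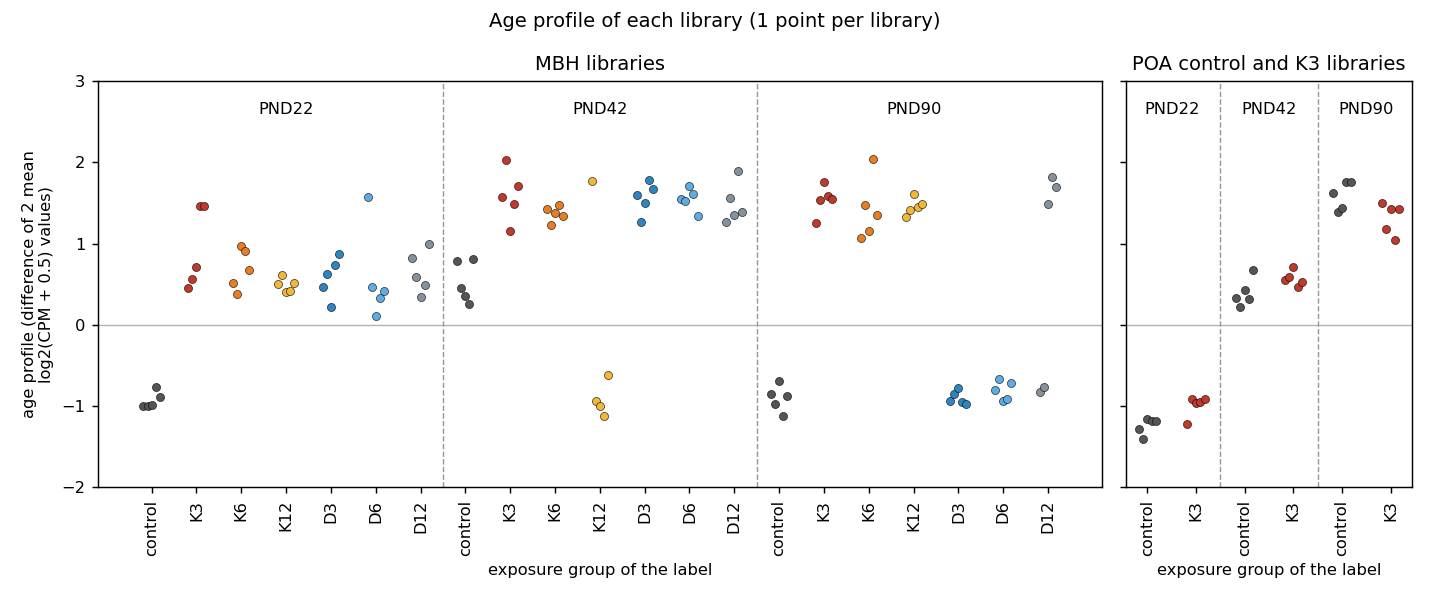
Age score of each library on the vertical axis (difference of mean log2(CPM + 0.5) between the transcripts higher and lower at PND 90 in POA control), by group on the horizontal axis, with each point 1 library, for all MBH groups on the left and for POA control and K3 on the right. The MBH control libraries of PND 90 sit between -1.12 and -0.70 and the K3 libraries between 1.25 and 1.75.

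Of the markers of the mammillary nuclei, which lie just behind the MBH, the 6 transcripts averaged 2.59 to 2.91 on the log2(CPM + 0.5) scale in control and 2.45 to 2.77 in K3. Among the 6, Foxb1 alone passed the test (log2 fold change -0.29, SE 0.10, adjusted p = 0.041, edgeR), and its call was lost without any one of control replicates 2, 3 and 5 or K3 replicates 2, 3 and 4. The ventromedial nucleus gene Nr5a1, which defines part of the MBH, was present in both groups, at 7.49, 12.9, 12.0, 8.45 and 7.11 CPM in control and 6.34, 6.69, 4.89, 5.35 and 7.86 CPM in K3 (log2 fold change -0.60, SE 0.18, adjusted p = 0.022, edgeR; lost without control replicate 2 or 3 or K3 replicate 3 or 4). The labelled tissue therefore carried its defining markers in all 10 libraries.

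The 10 libraries were also set against each of the other 19 groups of the MBH, 5 against 5. The control libraries gave 10 called genes against control at PND 22, among 14745 tested (0.0678%), and 2 against K12 at PND 42 (0.0136% of 14670). They gave 0 with edgeR against D3 and 0 against D6 at PND 90, with 1171 and 1762 genes at an unadjusted p under 0.05. Other groups gave more. At PND 22 D6 gave 478 of 14714 and D3 1679 of 14695. Control at PND 42 gave 1817 of 14807, and D12 at PND 90 gave 890 of 14618. The remaining groups gave 2454 (D12 at PND 42) to 4971 (K6 at PND 42). The K3 libraries gave 5876 called genes against control at PND 22, 40% of 14682, and 5164 of 14644 against D6 at PND 90. With edgeR they gave 0 against D12 at PND 90 and 0 against K3, D3, D6 and D12 at PND 42, where 2043, 413, 2428, 1053 and 297 genes had an unadjusted p under 0.05. Of the groups of PND 22, D3 gave 25 (0.171%), D6 23 (0.157%), D12 288 (1.97%), K3 346 (2.36%), K6 1437 (9.86%) and K12 2001 (13.6%). Of the other PND 42 groups, control gave 494 (3.35%), K12 863 (5.93%) and K6 2141 (14.8%). Few or no calls do not show that groups were alike, since a count also falls where the libraries of a group differ among themselves: of the 5 D12 libraries at PND 90, 2 scored low for age and 3 high. The counts against K6, K3 and K12 at PND 42 and against D3 and D12 at PND 22 include the 12 libraries low in mammillary transcripts, whose part in them was not tested.

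**Figure D2:**
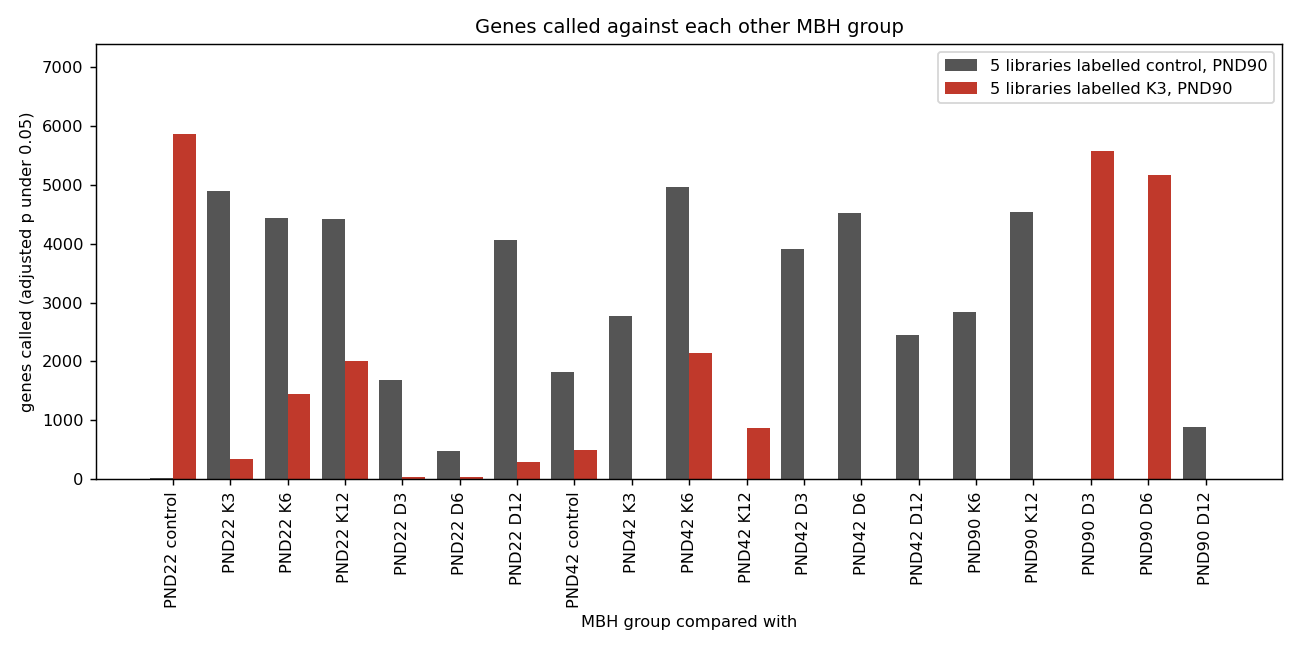
Number of genes called (edgeR, adjusted p under 0.05) when the 5 K3 libraries and the 5 control libraries of the MBH at PND 90 were each set against the other MBH groups, which stand on the horizontal axis. Control at PND 22 gave 10 genes against the control libraries and 5876 against the K3 libraries.

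Between K3 and control, edgeR called 4879 of 14622 genes tested, or 33.4%, at an adjusted p under 0.05 without a limit on fold change. Of these, 2544 rose (17.4% of those tested) and 2335 fell (16%). For 2918 genes (20%) the CPM of the groups did not overlap, with 1487 higher (10.2%) and 1431 lower (9.79%) in every K3 library. Most differences were small: the median absolute log2 fold change of the called genes was 0.42, and 445 of them passed a log2 fold change of 1, 202 upward and 243 downward. The median over all genes was -0.00.

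The direction of the genes was set beside the age contrast of POA control (PND 90 against PND 22), with which the comparison shares no library, although the PND 90 libraries carry the animal numbers of the MBH controls, and which called 27.3% of its 14351 genes. Of 14241 genes tested in both, 4815 were called in K3 against control and 3916 in the age contrast. The 2684 genes called in both made up 55.7% of the first and 68.5% of the second list, and 2682 of them had the same sign. Across genes, which are not independent replicates, Pearson's r was 0.77 and Spearman's rho 0.76. One POA control library of PND 22, replicate 4, held mammillary transcripts. Without it the age contrast called 3448 genes (23.8%), 2474 genes were called in both and all had the same sign.

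**Figure D3:**
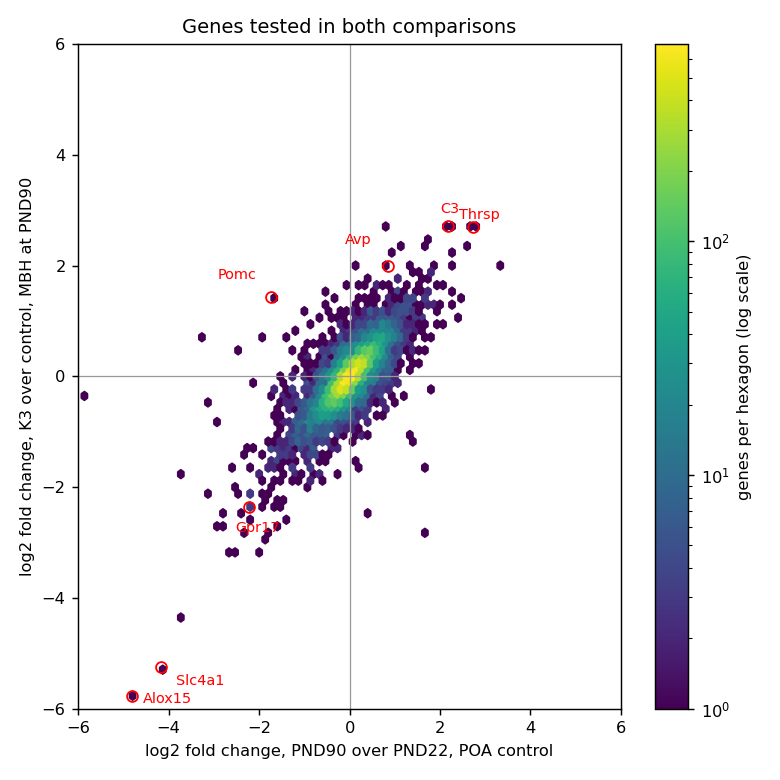
Log2 fold change of K3 against control in the MBH at PND 90 on the vertical axis, against that of PND 90 against PND 22 in POA control on the horizontal axis, with 14241 genes counted in hexagons whose colour is the number of genes on a log scale. Most genes lie along the rising diagonal, with a Pearson correlation of 0.77 across genes.

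The genes that fell furthest were led by those of blood and connective tissue. Alox15 (ENSRNOG00000019183), a lipoxygenase of blood cells, had 50.01, 43.6, 27.7, 85.5 and 36.3 CPM in control and 0.435, 0.349, 0.550, 1.04 and 1.91 CPM in K3 (log2 fold change -5.76, SE 0.38, adjusted p = 4.4e-07, edgeR). Slc4a1 (ENSRNOG00000020951), the anion exchanger of red cells, had 6.51, 4.98, 3.14, 10.3 and 4.27 CPM and 0, 0.175, 0.122, 0.348 and 0 CPM (log2 fold change -5.25, SE 0.51, adjusted p = 1e-05, edgeR). In both genes every K3 library lay below every control library. Alas2, which starts heme synthesis in red cells, fell by 3.12 on the log2 scale (adjusted p = 2.5e-05, edgeR), and the hemoglobin gene Hba-a2 by 2.86. The collagen genes Col26a1 (log2 fold change -3.18, SE 0.21), Col3a1 (-2.75, SE 0.30), Col20a1 (-2.75, SE 0.20) and Col1a1 (-2.63, SE 0.34) fell with elastin, Eln (-2.96, SE 0.27). Pnlip, a lipase known from the pancreas, completed the 10 largest decreases, at 52.1, 40.6, 45.2, 49.2 and 45.8 CPM in control and 7.83, 8.67, 6.78, 7.44 and 5.06 CPM in K3. Copies of hemoglobin genes are near identical, so their single values are uncertain.

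Among the 10 largest increases, Thrsp (ENSRNOG00000012404), a thyroid hormone responsive gene of lipid synthesis, had 3.12, 3.86, 3.86, 4.73 and 3.34 CPM in control and 20.7, 20.5, 29.3, 26.5 and 23.2 CPM in K3 (log2 fold change 2.71, SE 0.14, adjusted p = 3.9e-08, edgeR). Complement component C3 (ENSRNOG00000046834) had 3.57, 2.64, 5.24, 5.14 and 6.57 CPM and 36.5, 22.8, 28.4, 30.5 and 27.4 CPM (log2 fold change 2.69, SE 0.20, adjusted p = 7.6e-07, edgeR). Mfrp, a frizzled-related membrane protein, had 0.491, 1.17, 0.386, 0.473 and 1.04 CPM and 3.92, 3.37, 4.40, 4.26 and 6.97 CPM (log2 fold change 2.70, SE 0.30, adjusted p = 2.8e-05, edgeR), with K3 replicate 5 above the other K3 libraries. The groups did not overlap in any of these 3 genes. Aadat, which makes kynurenic acid, had a log2 fold change of 2.32, SE 0.24, and Cryab, a small heat shock protein of glia, of 2.04, SE 0.091. Smaller increases were found for Pla2g7 (1.91, SE 0.13), Pbld1 (1.89, SE 0.21), the glutathione transferase Gsta1 (1.85, SE 0.14) and Qdpr (1.76, SE 0.093), which regenerates tetrahydrobiopterin. Avp, the remaining gene, is described with the peptides.

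In the list of blood markers, all 7 members tested fell (median log2 fold change -2.58). Summed over the list, blood transcripts ran from 718 to 1792 CPM in control and from 167 to 282 CPM in K3, with Hba-a1 the most abundant. In the list of meninges and fibroblasts, 8 of 10 fell and 0 rose (median -1.42). The summed level ran from 701 to 1371 CPM in control and from 282 to 1444 CPM in K3, with Ptgds as its most abundant gene. Lum, a proteoglycan of fibroblasts (log2 fold change -1.43, SE 0.23), and the growth factor Igf2 (-1.53, SE 0.36) were among those that fell. The part of blood and meninges left on the tissue in the other results was not tested. For comparison, 33.4% of all genes were called, and the median of all genes was -0.00. In bulk tissue, fewer cells of a type and less RNA per cell cannot be told apart.

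**Figure D4:**
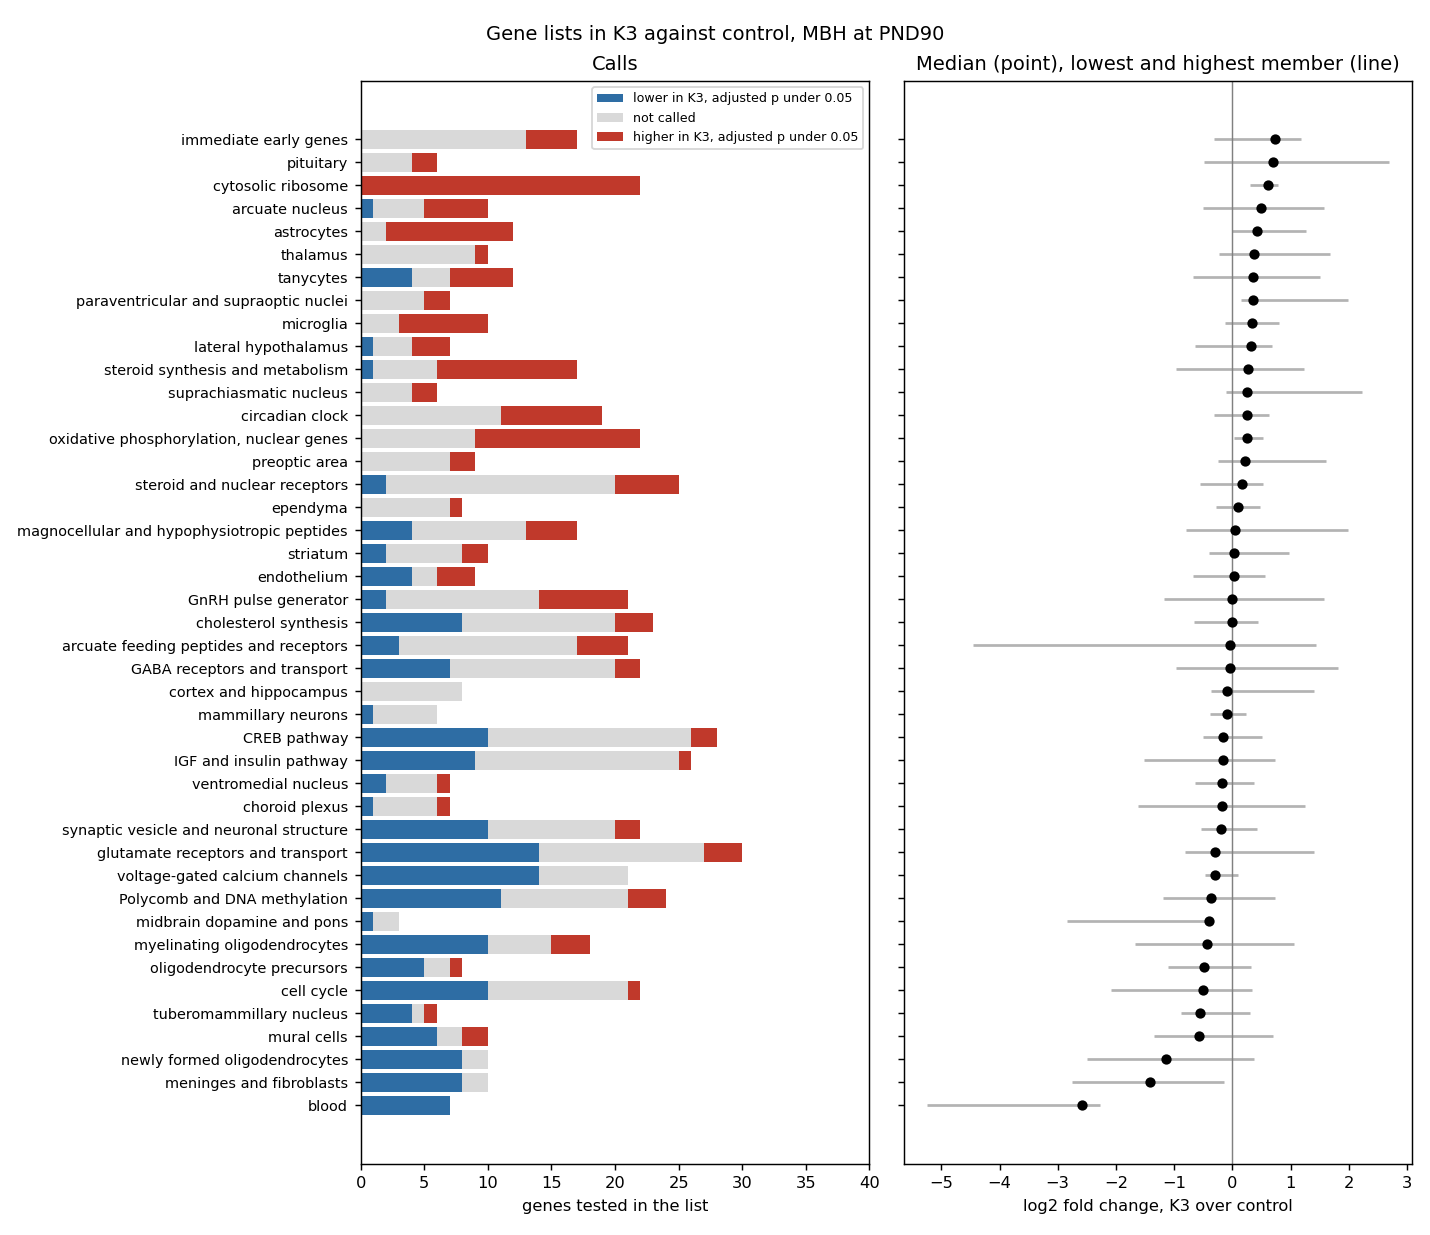
For each gene list, the number of members tested that were lower, not called or higher in K3 (left, edgeR, adjusted p under 0.05) and the median log2 fold change with its lowest and highest member (right). Blood markers have the lowest median (-2.58), and the cytosolic ribosome list has 22 of 22 members higher.

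Markers of the oligodendrocyte lineage fell more often than they rose at each stage listed, where over all genes 16% fell and 17.4% rose. Gpr17 (ENSRNOG00000025745), a receptor that marks newly formed oligodendrocytes, had 136, 115, 135, 106 and 122 CPM in control and 24.0, 22.1, 23.1, 22.2 and 26.3 CPM in K3. Every K3 library lay far below every control library (log2 fold change -2.36, SE 0.083, adjusted p = 1.1e-09, edgeR). In the POA at PND 90 the control libraries had 24.2 to 29.4 CPM, and in the MBH D3 had 83.8 to 129.8 CPM. Enpp6, a choline phosphodiesterase of the same stage, had 38.9, 30.3, 29.5, 30.3 and 30.9 CPM in control and 4.85, 9.60, 4.95, 4.30 and 4.17 CPM in K3 (log2 fold change -2.49, SE 0.20, adjusted p = 1.7e-06, edgeR). The calcium-sensing receptor Casr (log2 fold change -2.34, SE 0.23) and the kinase Fyn (-0.65, SE 0.064), which acts at the start of myelination, fell as well. Of 10 newly formed oligodendrocyte markers tested, 8 fell and 0 rose (median -1.14).

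Of 8 precursor markers tested, 5 fell and 1 rose (median -0.49), among them Pdgfra, the receptor for platelet-derived growth factor (-0.56, SE 0.065), the proteoglycans Cspg4 (-0.59, SE 0.084) and Vcan (-0.63, SE 0.089), and Tnr, tenascin-R (-1.11, SE 0.12). Of 18 markers of myelinating oligodendrocytes, 10 fell and 3 rose (median -0.43). Ugt8, which makes the myelin lipid galactosylceramide, had 605, 404, 431, 522 and 465 CPM in control and 113, 129, 156, 169.6 and 174 CPM in K3 (log2 fold change -1.68, SE 0.13, adjusted p = 1.4e-06, edgeR), without overlap. Mag (-1.14, SE 0.12), Sirt2 (-1.11, SE 0.078) and Cldn11 (-0.90, SE 0.13), proteins of the myelin sheath, fell too. Mbp, the myelin basic protein, did not pass the test (log2 fold change -0.17, SE 0.17, adjusted p = 0.47, edgeR). The 3 that rose, Hapln2 (1.05), Klk6 (0.65) and Ermn (0.53), are known from mature oligodendrocytes and were named after their values were seen. Without K3 replicate 1 the increases in this list were 5.

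**Figure D5:**
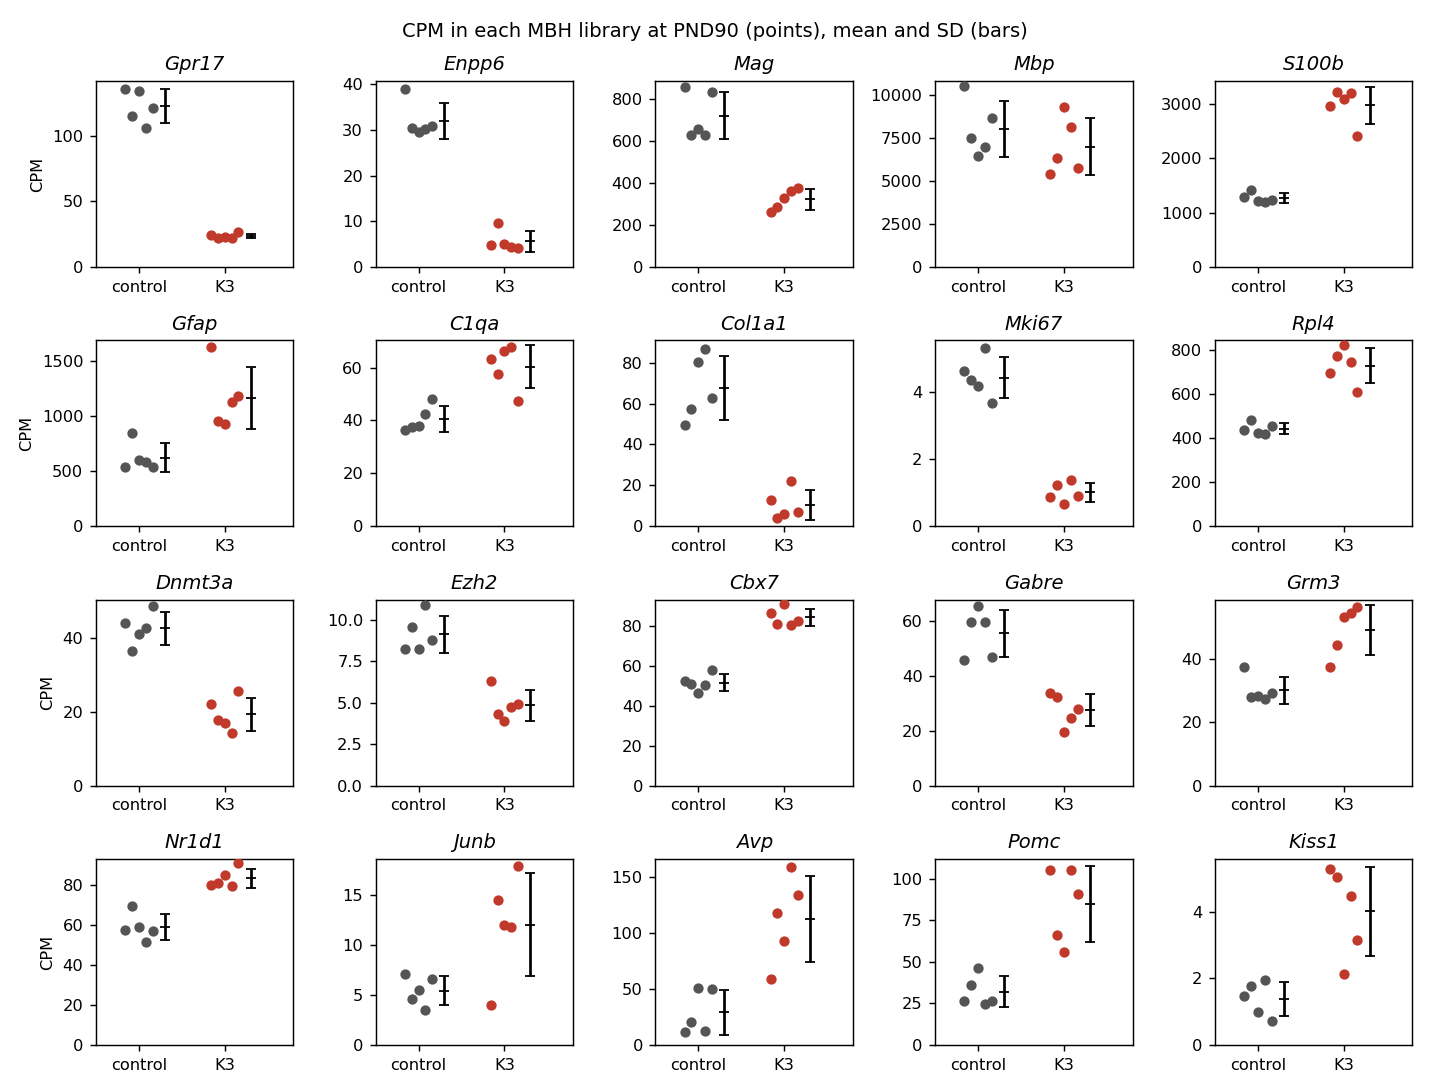
CPM (linear axis from 0) of 20 genes in each of the 5 control and 5 K3 libraries, 1 point a library, with bars for mean and SD. The groups do not overlap for Gpr17, which lies at 106 to 136 CPM in control and 22.1 to 26.3 CPM in K3.

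Of 22 cell cycle genes 10 fell and 1 rose, beside 16% and 17.4% over all genes, and 11 were not called. Mki67, the marker of dividing cells, had 4.64, 4.37, 4.19, 5.32 and 3.67 CPM in control and 0.870, 1.22, 0.672, 1.39 and 0.894 CPM in K3 (log2 fold change -2.08, SE 0.20, adjusted p = 1e-05, edgeR). All K3 values lay below all control values. Top2a (-2.09, SE 0.21), which untangles replicated DNA, and the mitotic kinase Cdk1 (-1.74, SE 0.30) fell as well. The single one that rose was Pcna (0.33, SE 0.057), the clamp of DNA polymerase.

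Markers of astrocytes moved the other way, with 10 of 12 higher, 0 lower and a median of 0.41, beside 17.4% of all genes higher. S100b, a calcium-binding protein, had 1279.7, 1416, 1218, 1186 and 1237 CPM in control and 2960.2, 3222, 3083, 3206 and 2402 CPM in K3 (log2 fold change 1.26, SE 0.093, adjusted p = 7.6e-07, edgeR). Gfap, the intermediate filament of astrocytes, had 538, 849.9, 598, 581 and 534 CPM and 1629.6, 957, 926, 1129.7 and 1183 CPM (log2 fold change 0.94, SE 0.15, adjusted p = 0.00042, edgeR). No K3 library reached down to a control library in either gene. Aldoc (0.62, SE 0.10) and angiotensinogen, Agt (0.59, SE 0.10), rose less. Of 10 microglial genes 7 rose and 0 fell (median 0.34), including Aif1 (0.71, SE 0.11), the lipid receptor Trem2 (0.81, SE 0.16) and the complement genes C1qa (0.61, SE 0.11) and C1qb (0.47, SE 0.078).

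Vessel markers were split, where over all genes 16% fell and 17.4% rose. Of 10 mural cell markers 6 fell and 2 rose (median -0.57), with the potassium channel subunits Kcnj8 (-1.35, SE 0.14) and Abcc9 (-1.21, SE 0.11), the receptor Pdgfrb (-0.78, SE 0.087) and vitronectin, Vtn (-1.03, SE 0.12), among the lower. Of 9 endothelial markers 4 fell, such as the growth factor receptor Kdr (-0.68, SE 0.11) and the cadherin Cdh5 (-0.56, SE 0.13), and 3 rose, such as Flt1 (0.50, SE 0.078) and the transporter Slco1a4 (0.56, SE 0.10). Tanycyte markers showed 5 higher and 4 lower of 12, ependymal markers 1 higher of 8, and choroid plexus markers 1 higher and 1 lower of 7, the last 2 lists under the 33.4% called over all genes. The counts of these 3 lists rested on single libraries. Tanycyte increases were 3 without replicate 1 of either group, the ependymal increase was lost without any one of control replicates 1, 3 and 5 and K3 replicates 3 and 4 while 1 ependymal gene fell without K3 replicate 1, and the choroid plexus list had 2 higher without control replicate 3 or K3 replicate 1 and 2 lower without K3 replicate 4.

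Genes of the ribosome rose throughout and those of respiration in part. All 22 cytosolic ribosomal protein genes tested rose (median 0.60, range 0.30 to 0.79). Rpl4 had 436, 480.3, 424, 417 and 456 CPM in control and 698, 772, 823, 745 and 609 CPM in K3 (log2 fold change 0.75, SE 0.088, adjusted p = 4e-05, edgeR). Each control library was below each K3 library. Rplp1 rose by a similar amount (0.69, SE 0.07). Ribosomal protein genes have many near-identical copies, and how reads on such copies were counted is not given in the sources used here. Of 22 nuclear genes of oxidative phosphorylation 13 rose and 0 fell (median 0.24), beside 17.4% and 16% of all genes, among them the complex I subunit Ndufb8 (0.53, SE 0.093) and the cytochrome oxidase subunit Cox7c (0.37, SE 0.09). The count depended on single libraries, at 6 without K3 replicate 3, 7 without control replicate 3 or 4 or K3 replicate 4, and 17 without K3 replicate 1.

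Polycomb proteins silence genes, those of complex 2 by methylating histone H3, and DNA methyltransferases act on DNA itself. Of 24 genes of both systems 11 fell and 3 rose (median -0.37), beside 16% and 17.4% of all genes. Dnmt3a (ENSRNOG00000026649), which methylates new sites in DNA, had 44.2, 36.5, 41.3, 42.7 and 48.7 CPM in control and 22.1, 17.7, 16.9, 14.4 and 25.7 CPM in K3 (log2 fold change -1.12, SE 0.13, adjusted p = 4e-05, edgeR). Ezh2 (ENSRNOG00000006048), the catalytic subunit of Polycomb complex 2, had 8.25, 9.56, 8.22, 10.9 and 8.81 CPM and 6.34, 4.31, 3.91, 4.74 and 4.94 CPM (log2 fold change -0.89, SE 0.13, adjusted p = 0.00027, edgeR). For both genes the groups were fully separate. Ezh1, the other catalytic subunit, rose (0.48, SE 0.059), and of the chromodomain proteins Cbx6 fell (-0.81, SE 0.061) while Cbx7 rose (0.74, SE 0.072). The single further increase was Eed (0.29), named after its value was seen. The POA age contrast had a median of -0.31 over the same list, and this sharing of sign was not particular to it. The age medians were -2.24 for blood, -1.38 for newly formed oligodendrocytes, -0.51 for cell cycle, 0.54 for astrocytes, 0.49 for microglia and 0.66 for the ribosome. The 2 medians had opposite signs in the GnRH, magnocellular, tanycyte, choroid plexus, endothelial, pituitary, arcuate nucleus, lateral hypothalamus, thalamus and cortex lists.

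Genes of calcium channels and of transmission by glutamate and GABA were counted beside the 16% of all genes that fell and the 17.4% that rose. Of 21 voltage-gated calcium channel genes 14 fell and 0 rose (median -0.31), with Cacng5 (-0.44, SE 0.082), Cacnb1 (-0.39, SE 0.078), Cacna2d2 (-0.37, SE 0.073) and Cacna1b (-0.29, SE 0.066), the pore of the N-type channel, having the smallest adjusted p. Of 30 glutamate receptor and transporter genes 14 fell and 3 rose (median -0.30). Grin1, the subunit that all NMDA receptors share, had 456, 458, 471, 444 and 492 CPM in control and 312, 341, 304, 335 and 398 CPM in K3 (log2 fold change -0.43, SE 0.069, adjusted p = 0.00044, edgeR). The values of the groups did not meet. The kainate receptor gene Grik2 (-0.36, SE 0.07) and the transporter Slc1a1 (-0.49, SE 0.091) fell, and Grm3, a metabotropic receptor also made by astrocytes, rose (0.74, SE 0.12). The number that fell lay between 9 and 21 when single libraries were left out, at 9 without control replicate 1 and 21 without K3 replicate 5.

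Of 22 genes of GABA receptors and transport 7 fell and 2 rose (median -0.05). The subunits Gabre (-0.98, SE 0.13) and Gabrg3 (-0.86, SE 0.14) fell, and Abat, which breaks GABA down, rose (0.42, SE 0.067). The GABA increases were 1 without any one of control replicates 2 to 5 or K3 replicate 3 and 4 without K3 replicate 1. Of 22 genes of synaptic vesicles and neuronal structure 10 fell and 2 rose, beside 16% and 17.4% of all genes. Stx1a (-0.49, SE 0.068), Syn1 (-0.25, SE 0.054) and the tubulin Tubb3 (-0.41, SE 0.078) were among the lower and Map2 (0.42, SE 0.088) among the higher. The increases of that list were 1 without any one of control replicates 2, 3 and 5 and K3 replicates 3 and 4. In the CREB pathway, which carries cyclic AMP signals to the nucleus, 10 of 28 fell and 2 rose, again beside 16% and 17.4% of all genes. Adenylyl cyclase Adcy6 (-0.50, SE 0.076) and the protein kinase A subunits Prkacb (-0.51, SE 0.089) and Prkaca (-0.24, SE 0.051) fell, and Crem rose (0.37, SE 0.10). The number of CREB pathway genes that fell was 5 without control replicate 5 or K3 replicate 4, 6 without control replicate 1 or K3 replicate 2 or 3, and 13 without K3 replicate 5. In the insulin-like growth factor (IGF) and insulin pathway 9 of 26 fell and 1 rose, beside 16% and 17.4% of all genes. The share called in either direction was near the 33.4% of all genes. Igf1 fell (-0.68, SE 0.16), and the binding protein Igfbp5 rose (0.73, SE 0.063). The decreases of this list were 7 to 11 when single libraries were left out.

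Genes of the neuropeptides of the MBH moved in both directions. Kiss1 (ENSRNOG00000047481), whose product kisspeptin drives GnRH release, had 1.47, 1.78, 0.993, 1.95 and 0.711 CPM in control and 5.28, 5.06, 2.14, 4.48 and 3.16 CPM in K3 (log2 fold change 1.57, SE 0.29, adjusted p = 0.0011, edgeR). Tac3, the neurokinin made by the same arcuate neurons, had 14.3, 19, 21.5, 12.5 and 16.0 CPM and 35.4, 29.8, 21.3, 30.2 and 28.7 CPM (log2 fold change 0.83, SE 0.15, adjusted p = 0.00081, edgeR). Kiss1 separated the groups, whereas for Tac3 K3 replicate 3 lay within the range of control. Mkrn3, a ubiquitin ligase known as a brake on puberty, had 4.24, 2.49, 3.48, 2.54 and 3.50 CPM in control and 1.31, 1.69, 1.10, 1.35 and 1.61 CPM in K3 (log2 fold change -1.18, SE 0.21, adjusted p = 0.00077, edgeR). Gnrh1, made by few cells whose bodies lie mostly outside the MBH, had 0.981, 0.458, 0.938, 1.12 and 0.328 CPM and 1.18, 2.79, 2.02, 0.913 and 1.55 CPM (log2 fold change 1.16, SE 0.37, adjusted p = 0.027, edgeR). Mkrn3 was lower in every K3 library than in any control library, and the ranges of Gnrh1 overlapped. The call of Gnrh1 was lost without control replicate 2 or 5 or K3 replicate 2 or 3. Of the 21 genes in the GnRH list, 7 rose and 2 fell (median -0.01), beside 17.4% and 16% of all genes, the other decrease being Igsf10 (-0.47, SE 0.12). The increases were 4 without any one of control replicates 2, 4 and 5 and K3 replicates 2 and 3. The POA age contrast called each gene named in this paragraph, with the same sign as K3 against control (edgeR). It gave Kiss1 2.31 (adjusted p = 0.017), Tac3 1.04 (0.0035) and Gnrh1 1.89 (0.013). Mkrn3 had -1.29 (0.0014) and Igsf10 -0.63 (0.020).

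Pomc (ENSRNOG00000012686), the precursor of melanocortins that reduce feeding, had 26.3, 36.4, 46.6, 24.6 and 26.5 CPM in control and 106, 66.4, 55.7, 106 and 91.1 CPM in K3 (log2 fold change 1.43, SE 0.19, adjusted p = 0.00012, edgeR). Cartpt, a peptide made in the same arcuate neurons, had a log2 fold change of 0.85, SE 0.11. Agrp, which increases feeding, had 12.0, 14.2, 13.1, 9.10 and 9.85 CPM and 7.21, 10.7, 8.19, 7.61 and 6.14 CPM (log2 fold change -0.51, SE 0.16, adjusted p = 0.027, edgeR). All K3 values of Pomc lay above those of control, while the ranges of Agrp overlapped, and the call of Agrp was lost without control replicate 1, 2 or 3 or K3 replicate 4 or 5. Npw, neuropeptide W, had 2.99, 4.98, 2.70, 2.25 and 2.79 CPM in control and 0, 0.0582, 0.122, 0.0435 and 0.477 CPM in K3 (log2 fold change -4.45, SE 0.49, adjusted p = 2.6e-05, edgeR). The K3 values of Npw rest on 0, 1, 2, 1 and 8 reads, and control replicate 2 was above the other controls. Of 21 arcuate feeding genes 4 rose and 3 fell, close to the 33.4% called over all genes. In the age contrast of POA control, Pomc had a log2 fold change of -1.73 with and 0.98 without control replicate 4 of PND 22.

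Vasopressin and oxytocin, hormones of the magnocellular neurons, were both higher. Avp (ENSRNOG00000021229) had 11.4, 20.4, 51.0, 12.6 and 50.1 CPM in control and 59.2, 118, 93.4, 159 and 135 CPM in K3 (log2 fold change 1.99, SE 0.39, adjusted p = 0.0018, edgeR). Oxt (ENSRNOG00000021225) had 16.1, 26.5, 96.7, 9.46 and 58.5 CPM and 90.1, 121, 121, 240.5 and 140.2 CPM (log2 fold change 1.81, SE 0.48, adjusted p = 0.01, edgeR). For Avp the groups did not overlap, and for Oxt K3 replicate 1 lay below control replicate 3. Of 17 magnocellular and hypophysiotropic genes 4 rose and 4 fell, beside 17.4% and 16% of all genes. The decreases were 2 without any one of control replicates 2, 3 and 5 or K3 replicate 2 and 1 without K3 replicate 3. Somatostatin, Sst, rose (0.52, SE 0.13), and the amine transporter Slc18a2 fell (-0.81, SE 0.12). Avp was not called in the POA age contrast (log2 fold change 0.86, adjusted p = 0.28, edgeR).

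Markers of single nuclei were few per list, so that the counts stand beside 33.4% of all genes called. In the arcuate list 5 rose and 1 fell of 10, in the lateral hypothalamus list 3 rose and 1 fell of 7, with Pmch (0.68, SE 0.10) and orexin, Hcrt (0.48, SE 0.10), higher, and in the ventromedial list 1 rose and 2 fell of 7. Histamine neurons of the tuberomammillary nucleus had 4 lower and 1 higher of 6 markers, led by Hdc, which makes histamine (log2 fold change -0.89, SE 0.15, adjusted p = 0.00053, edgeR). In the suprachiasmatic list 2 of 6 rose, Vip (2.23, SE 0.40) and Grp (0.59, SE 0.16), in the paraventricular and supraoptic list 2 of 7, in the preoptic list 2 of 9, with Moxd1 at 1.61, SE 0.19, and in the pituitary list 2 of 6, Pomc and Tshb, shares no higher than that of all genes. Vip reached 3.48, 16.8, 7.88, 18.2 and 19.4 CPM in K3 against 2.28, 3.20, 1.43, 4.73 and 2.85 CPM in control, with K3 replicate 1 at the control level. Small counts in these lists rested on single libraries. The arcuate increases were 3 without K3 replicate 2, and the arcuate decrease, which is Agrp, was lost without any one of 5 libraries. The ventromedial increase was lost without any one of control replicates 1, 4 and 5 and K3 replicates 1, 2 and 5, and the ventromedial decreases were 1 without any one of control replicates 2 and 3 and K3 replicates 3 and 4. The tuberomammillary increase was lost without control replicate 1 or 5 or K3 replicate 1 or 2. The preoptic list had 1 increase without control replicate 2 or 5 or K3 replicate 2 or 3, and the pituitary list had 1 without control replicate 1 or 4 or K3 replicate 5 and 1 decrease without replicate 1 of either group.

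Markers of tissue outside the MBH were counted beside the 33.4% called over all genes. In the thalamus list 1 of 10 rose, Prkcd, with 39.0, 10.5, 12.2, 14.4 and 25.8 CPM in control and 13.1, 11.7, 80.2, 80.7 and 112 CPM in K3, where replicates 3, 4 and 5 stood high (log2 fold change 1.56, SE 0.55, adjusted p = 0.044, edgeR). Its call was lost without any one library other than control replicate 1 and K3 replicates 1 and 2. In the striatum list 2 rose and 2 fell of 10, with Ppp1r1b at 0.97, SE 0.10 and Penk at 0.44, SE 0.10. The thalamus list had 4 higher without replicate 1 of either group, 3 without K3 replicate 2 and 0 without any other single library, and 1 lower without replicate 5 of either group. The striatum list had 0 lower without control replicate 1 or 5 and 1 without any one of control replicates 3 and 4 and K3 replicates 2, 3 and 4. In the list of cortex and hippocampus 0 of 8 were called with edgeR, with 1 higher without K3 replicate 1 and 1 lower without K3 replicate 5. In the midbrain list 1 of 3 was called, the dopamine transporter Slc6a3, at 133, 6.76, 5.41, 62.8 and 99.1 CPM in control and 6.15, 6.92, 12.6, 8.26 and 8.34 CPM in K3 (log2 fold change -2.84, SE 0.70, adjusted p = 0.0074, edgeR). Its high values came from control replicates 1, 4 and 5, whereas replicates 2 and 3 lay at the level of K3. The part of the dissection in the other results was not tested.

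Genes of steroid and sterol metabolism were examined because KTZ inhibits enzymes of these pathways. Of 17 genes of steroid synthesis and metabolism 11 rose and 1 fell (median 0.27), beside 17.4% and 16% of all genes. The increases were 8 to 10 when single libraries were left out. In the age contrast of POA control, where no library was exposed to KTZ, 8 of 16 were called higher at PND 90 and 0 lower. The median there was 0.43, and 15.5% of all genes were higher and 11.8% lower. Cyp27a1, a mitochondrial sterol hydroxylase, had 2.14, 2.95, 2.70, 3.31 and 2.74 CPM in control and 8.64, 6.40, 5.13, 6.39 and 5.12 CPM in K3 (log2 fold change 1.23, SE 0.17, adjusted p = 0.00015, edgeR). All K3 values were above those of control. Tspo, a mitochondrial protein used as a glial marker, rose (0.96, SE 0.18), as did Hsd17b10 (0.64, SE 0.082) and Hsd11b1, which regenerates active glucocorticoid (0.68, SE 0.11). The single decrease was Akr1c14 (-0.96), which reduces progesterone metabolites to neurosteroids and was named after its value was seen. No gene of the list fell without any one of control replicates 1 to 4 or K3 replicates 2, 3 and 5, and 2 fell without K3 replicate 1. Cyp19a1, the aromatase, had 1.29, 1.32, 1.65, 0.650 and 0.766 CPM in control and 1.86, 1.57, 0.733, 1.48 and 0.774 CPM in K3 and did not pass the test (log2 fold change 0.20, SE 0.32, adjusted p = 0.66, edgeR).

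In cholesterol synthesis 8 of 23 genes fell and 3 rose (median -0.01), beside 16% and 17.4% of all genes. Hsd17b7 (-0.65, SE 0.13) fell and Msmo1 rose (0.43, SE 0.085). Without K3 replicate 1 the increases numbered 5 and without control replicate 1 they were 4. They were 2 without any one of control replicates 2, 3 and 5 or K3 replicates 2, 3 and 4. The decreases ran from 6 to 10 when single libraries were left out. Cyp51, the sterol demethylase that azoles block, had 282 ± 29.8 CPM in control and 246 ± 10.7 CPM in K3 (mean ± SD, n = 5 each) and did not pass the test (log2 fold change -0.17, SE 0.074, adjusted p = 0.091, edgeR). Of 25 steroid and nuclear receptor genes 5 rose and 2 fell (median 0.17), a share no higher than the 33.4% called over all genes, with Rarb (0.53, SE 0.095), Thrb (0.33, SE 0.078), Ncoa1 (0.26, SE 0.065) and Nr1h2 (0.39, SE 0.10) higher. The decreases were 1 without any one of control replicates 1, 3 and 4 and K3 replicates 1, 3 and 4, and were lost without control replicate 5 or K3 replicate 2. Esr1, the estrogen receptor alpha, did not pass the test (log2 fold change 0.13, SE 0.15, adjusted p = 0.55, edgeR).

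Clock genes were higher or not called. The circadian clock is a loop in which CLOCK and BMAL1 bind the E-box, the letters CACGTG, and switch on their own repressors. Of 19 clock genes 8 rose and 0 fell (median 0.25), beside 17.4% and 16% of all genes. Without K3 replicate 1, 2 clock genes fell. Dbp, an output factor, had 80.7, 70.4, 70.8, 63.3 and 72.8 CPM in control and 87.2, 99.0, 126, 106 and 111 CPM in K3 (log2 fold change 0.59, SE 0.10, adjusted p = 0.00057, edgeR). Nr1d1, a repressor, had 57.5, 69.5, 58.9, 51.4 and 56.8 CPM and 80.2, 81.1, 84.8, 79.4 and 90.9 CPM (log2 fold change 0.53, SE 0.077, adjusted p = 0.00021, edgeR). In both genes the K3 libraries were all above control. Cry2 (0.33, SE 0.064) and Bhlhe41 (0.35, SE 0.079) rose less. Clock itself had a log2 fold change of 0.01 and Per1 of -0.00, and neither passed the test (adjusted p = 0.96 and 0.999, edgeR). The labels give no hour of dissection.

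The 250 bases before the start of transcription were searched for CACGTG, which reads the same on both strands, in RefSeq sequence of the build GRCr8. Of the 8 clock genes that rose, 4 held it (50%), Nr1d1 in 1 of 2 windows, and of the 8 others with a sequence 1 did (12.5%), as did 1872 of 33469 windows of this length over all genes (5.59%). The 4 windows are shown because the genes moved together, with the E-box in capitals. Ciart (log2 fold change 0.63, SE 0.16) and Bhlhe40 (0.31, SE 0.086) were named for holding the motif, after their values were seen. A match is a description of the letters and not evidence of binding.
Ciart promoter, chr2:186112247-186112496, reverse strand: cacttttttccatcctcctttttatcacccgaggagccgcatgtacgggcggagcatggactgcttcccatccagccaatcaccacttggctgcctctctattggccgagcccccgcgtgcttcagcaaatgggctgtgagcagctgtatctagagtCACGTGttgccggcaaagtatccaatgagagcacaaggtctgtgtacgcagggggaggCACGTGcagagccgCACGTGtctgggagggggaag
Bhlhe41 promoter, chr4:180569356-180569605, reverse strand: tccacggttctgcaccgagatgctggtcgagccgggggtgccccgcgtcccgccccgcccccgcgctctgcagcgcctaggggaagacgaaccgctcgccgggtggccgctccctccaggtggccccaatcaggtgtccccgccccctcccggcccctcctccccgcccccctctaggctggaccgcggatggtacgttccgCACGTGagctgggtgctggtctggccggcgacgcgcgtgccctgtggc
Bhlhe40 promoter, chr4:143174200-143174449, forward strand: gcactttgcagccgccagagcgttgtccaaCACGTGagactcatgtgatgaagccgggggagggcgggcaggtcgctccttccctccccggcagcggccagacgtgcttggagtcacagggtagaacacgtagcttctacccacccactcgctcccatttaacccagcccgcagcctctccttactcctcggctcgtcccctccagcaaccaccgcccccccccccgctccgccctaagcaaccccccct
Nr1d1 promoter, chr10:84229455-84229704, reverse strand: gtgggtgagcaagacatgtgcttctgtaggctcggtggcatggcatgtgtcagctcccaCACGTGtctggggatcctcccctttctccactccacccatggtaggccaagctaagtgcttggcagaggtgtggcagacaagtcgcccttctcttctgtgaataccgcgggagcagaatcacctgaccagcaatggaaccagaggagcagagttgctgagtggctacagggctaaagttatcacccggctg

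Immediate early genes, switched on within minutes by neuronal activity or handling, had 4 of 17 higher and 0 lower, at a median of 0.74, while 17.4% of all genes were higher and 33.4% were called. Junb had 7.09, 4.58, 5.46, 3.55 and 6.57 CPM in control and 3.98, 14.5, 12.0, 11.8 and 17.9 CPM in K3 (log2 fold change 1.17, SE 0.30, adjusted p = 0.0094, edgeR), and Dusp1 23.3, 13.2, 15.4, 15.0 and 19 CPM and 14.2, 46.1, 39.5, 31.5 and 34.6 CPM (log2 fold change 0.98, SE 0.25, adjusted p = 0.0086, edgeR). K3 replicate 1 lay at the level of control in both, and without that library 9 of 17 rose. Btg2 (0.92, SE 0.22) and Ier2 (0.69, SE 0.19) were the others called.

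The dose was compared next. K3 and K6 at PND 90 gave 0 called genes of 14471 with edgeR and 0 with DESeq2, with 326 at an unadjusted p under 0.05. The median absolute difference was 0.07 on the log2 scale at a median SE of 0.13. K3 and K12 gave 1 called gene of 14473 (0.00691%), Slc6a3, lower in K3 (log2 fold change -2.29, adjusted p = 0.044, edgeR), where 1870 had an unadjusted p under 0.05 and DESeq2 called 70. Without K3 replicate 5 edgeR called 289, and without any other single library except K12 replicate 5 it called 0. Gpr17 ran from 16.4 to 26.8 CPM in K6 and from 21.5 to 26.0 CPM in K12, around the range of K3. For Kiss1 the mean CPM was 4.02 ± 1.34 (SD, n = 5) in K3, beside 4.17 ± 1.98 in the K6 group and 2.83 ± 1.96 in the K12 group. Missing the threshold does not show that the doses acted alike.

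K3 was also set against D3, the lowest dose of DES, in a comparison without control libraries. Here 5586 of 14682 genes were called (38%), 2862 higher (19.5%) and 2724 lower (18.6%) in K3. The 20 genes with the largest changes against control were chosen by the same K3 libraries, so that their direction here is no independent result. Their log2 fold changes against D3 ran from -5.61 for Alox15 to 2.79 for Thrsp. The D3 libraries scored -0.98 to -0.78 on the age score, beside those labelled control.

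In the POA at PND 90, K3 against control gave 0 called genes of 14504 with edgeR, 8 with DESeq2 and 1067 at an unadjusted p under 0.05. The POA libraries of both groups scored high for age, at 1.05 to 1.5 in K3 and 1.39 to 1.76 in control. The difference between the tissues, tested as an interaction with the animal number as a block, was called for 1732 of 15022 genes (11.5%), 965 upward (6.42%) and 767 downward (5.11%). The count was 934 without K3 replicate 3, 1056 without K3 replicate 2, 953 without control replicate 5 and 1154 without control replicate 4. Gpr17 had a log2 fold change of -0.10 in the POA (adjusted p = 0.78) and an interaction of -2.25 (SE 0.13, adjusted p = 1.2e-06, edgeR). For Dnmt3a the interaction was -0.98 (adjusted p = 0.016), and for Kiss1 1.31 (adjusted p = 0.038).

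At PND 22 the same comparison in the MBH called 5735 of 14815 genes (38.7%). There the control libraries scored -1.0 to -0.77 for age, and the K3 libraries 0.45 to 1.46, above the POA libraries of PND 22. The interaction of age and exposure was called for 774 of 15177 genes (5.1%), 258 upward (1.7%) and 516 downward (3.4%). It rested on single libraries: without one, the count was 358 (PND 90 control replicate 1), 371 (PND 90 control replicate 5), 396 and 381 (PND 90 K3 replicates 1 and 2), 379 and 476 (PND 22 control replicates 1 and 2) or 2231 (PND 22 K3 replicate 1). Gpr17 had a log2 fold change of -1.66 at PND 22 beside -2.36 at PND 90, with an interaction of -0.70 (SE 0.27, adjusted p = 0.12, edgeR). For Kiss1 the change at PND 22 was 0.23 and the interaction 1.32 (adjusted p = 0.11).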

How the data were processed

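Polyadenylated RNA of the mediobasal hypothalamus and preoptic area was sequenced by the authors as stranded libraries. Their methods give the nf-core rnaseq pipeline 1.4.2, alignment to Rnor_6.0 with STAR 2.6.1d and counting on Ensembl 102 genes with featureCounts 1.6.4; the labels add bcl2fastq 2.20. The deposited values are raw counts, whole numbers for 32883 genes, without normalization. Strand and multimapping settings are not given in the sources used here. No column of values was left unmapped and no libraries were pooled.

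Groups were taken from the labels. Counts were tested with edgeR 4.0.16 (R 4.3.3, limma 3.58.1): TMM factors, filterByExpr at a minimum count of 10, quasi-likelihood test, two-sided, Benjamini-Hochberg adjustment over all genes tested, threshold 0.05 with no fold limit, and only the 2 groups compared in the fit. The tissue interaction carried the animal number of the labels as a block, since libraries of both tissues share it. The deviations of 4 of 10 pairs correlated over 0.1, all of them K3 pairs (0.28, 0.21, 0.40 and 0.25). The K3 pair of replicate 4 was at -0.14, and the control pairs ran from -0.20 to 0.09. SE is the size of the log2 fold change over the root of the test statistic F. CPM, the counts scaled to a common library total, were computed before TMM scaling. Alternatives were DESeq2 1.42.0, RLE scaling, other filters, a fit of all 7 groups, a replicate block and each library left out. On simulated counts for K3 against control edgeR recovered 45% of genes changed by 0.5 and 100% of those changed by 1 on the log2 scale. For the tissue interaction it recovered 10% and 81%. The simulation changed 100 genes at each size and gave all genes the same spread beyond counting error. Real genes differ in spread and far more were called, so these rates need not hold for the comparisons here.

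Named genes are the 10 largest increases and 10 largest decreases among called genes with a mean log2 CPM of at least 1, a gene symbol and no overlap between groups, up to 4 called members of each described list with the smallest adjusted p, and members that define a list. There were 43 lists, 18 of functions and 25 of cell types or regions, described by counts and medians without a set test. Some members of the lists are not reported here. Members and lists were chosen with earlier results of these data known. Promoter sequences are from RefSeq on GRCr8, not the build of the counts, and no coordinates of the counted genes were used. Figures were drawn with matplotlib 3.10.9. A count of 0 allows up to 3 counts, for counting error only.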

Additional observations from a re-analysis of the deposited data

Results flagged for a closer look

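Single libraries stood apart from the other 4 of their group in 10 of 286 cases, which are the 143 named genes in 2 groups, where chance gives about 1 case in 20. The measure is the gap to the nearest library as a share of the group's range, set against Dixon's 95% critical value for 5 samples. Eln in control replicate 2 was 115 CPM, above the nearest value of 53.3 CPM (share 0.829). Mfrp in K3 replicate 5 was 6.97 CPM, above the nearest value of 4.40 CPM (share 0.715). Npw in control replicate 2 was 4.98 CPM, above the nearest value of 2.99 CPM (share 0.728). Npw in K3 replicate 5 was 0.477 CPM, above the nearest value of 0.122 CPM (share 0.744). Enpp6 in control replicate 1 was 38.9 CPM, above the nearest value of 30.9 CPM (share 0.845). Enpp6 in K3 replicate 2 was 9.60 CPM, above the nearest value of 4.95 CPM (share 0.856). Gfap in control replicate 2 was 849.9 CPM, above the nearest value of 598 CPM (share 0.797). Grm3 in control replicate 1 was 37.5 CPM, above the nearest value of 29.3 CPM (share 0.811). Slc1a1 in K3 replicate 5 was 93.6 CPM, above the nearest value of 69.0 CPM (share 0.856). Ppp1r1b in K3 replicate 5 was 76.0 CPM, below the nearest value of 87.0 CPM (share 0.916).

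The difference between K3 and control was other in the MBH than in the POA for 17 of the 20 genes with the largest changes, by the interaction of tissue and exposure with the animal number as a block (edgeR, adjusted p from 1.2e-06 to 0.048), compared with 11.5% of all genes tested. These genes were chosen for their difference in the MBH, which is 1 arm of the interaction, so the count is a description. The interactions, as the log2 fold change in the MBH minus that in the POA, were Alox15 (-5.73), Slc4a1 (-5.49), Alas2 (-2.71), Eln (-2.67), Hba-a2 (-2.38), Col20a1 (-2.68), Pnlip (-2.57), Col1a1 (-2.13), Thrsp (2.82), Mfrp (2.63), C3 (2.86), Aadat (2.58), Cryab (2.46), Pla2g7 (1.82), Pbld1 (1.79), Gsta1 (1.69) and Qdpr (1.83). In the POA 18 of the 20 genes were tested, and 0 of these were called with edgeR, as over all genes there. The POA libraries of both groups scored high for age, whereas the MBH control libraries scored low, and the part of that gap in the interaction was not tested.

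Between PND 90 and PND 22 in the MBH, the difference was other for 7 of these 20 genes (edgeR, adjusted p from 0.00082 to 0.031), compared with 5.1% of all genes tested. Their choice by the difference at PND 90 enters this interaction too. The log2 fold change at PND 90 minus that at PND 22 was Alox15 (-3.10), Slc4a1 (-3.47), Alas2 (-2.73), Hba-a2 (-2.76), Col20a1 (-1.04), Pnlip (-1.66) and Aadat (1.49). The first 6 had lower fold changes at PND 90 than at PND 22, and Aadat a higher one.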

How the results depend on the processing

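The 4879 genes called between K3 and control were 5235 with DESeq2, 4886 with RLE scaling, 4628 without a filter on low counts, 4644 at a minimum count of 50 and 4669 in 1 fit of all 7 groups. Without single libraries they were 3808 (without K3 replicate 3) to 5473 (without K3 replicate 5). Limited to genes with an unadjusted p of at least 0.05 in the POA age contrast, an alternative chosen after seeing the data, 777 of 8588 were called with p adjusted again over these genes, and 1501 at the adjustment over all genes. K3 against K6 gave 0 in every setting tried. K3 against K12 gave 70 with DESeq2, 2 with the replicate block and 0 to 289 without single libraries. K3 against D3 gave 5299 to 5947 over the settings that kept all libraries and 4407 to 5884 without single ones. In the POA DESeq2 called 8, and 0 to 1 were called without single libraries. The tissue interaction ranged from 934 to 1736 without single libraries and was 1877 with no replicate block. The age interaction was 499 without a filter, 363 with the replicate block and 358 to 2231 without single libraries. The causes of these shifts were not tested.

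Replicate numbers shared by K3 and control did not pair the libraries: the correlations of their deviations ran from -0.33 to 0.05, with 0 of 5 over 0.1. With the replicate number as a block K3 against control gave 3781, and K3 against D3 5835. Of the 143 named genes 139 were called, and 127 remained called in every setting. The sign was reversed for 0, 12 were lost in at least 1 setting (Agrp, Btg2, Crem, Fezf1, Foxb1, Gnrh1, Ier2, Maob, Nr1h2, Nr5a1, Prkcd and Slc6a3), and Cyp51 (log2 fold change -0.21) passed without control replicate 3. Counts under 3 per library, as for Npw in all K3 libraries but replicate 5, limit what can be said of low genes.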

Other observations

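Among the 8588 genes with an unadjusted p of at least 0.05 between the ages of POA control, 1501 (17.5%) were called between K3 and control at the adjustment over all genes, compared with 33.4% of all genes tested. With p adjusted again over the 8588 alone, 777 were called, 367 higher and 410 lower. Mfrp and Avp, described among the largest increases, had the largest upward changes without overlap in this set. Mfrp belongs to it through 1 library: without POA control replicate 4 of PND 22, which held mammillary transcripts, its age contrast was 2.62 (adjusted p = 0.027, edgeR) in place of 0.85, whereas Avp and the genes below kept an unadjusted p of at least 0.05. Without that library the set held 8927 genes, of which 1586 (17.8%) were called. The genes below come next upward and are the first downward, named after their values were seen. Rspo1, a secreted activator of Wnt signalling, had 1.6 to 2.37 CPM in control and 4.64 to 7.10 CPM in K3 (log2 fold change 1.71, SE 0.16, adjusted p = 9.4e-06, edgeR, against 0.37 in the age contrast). Stra6, the receptor that takes up vitamin A, had 6.38 to 12.8 CPM in control and 18.9 to 41.3 CPM in K3 (log2 fold change 1.48, SE 0.21, adjusted p = 0.00015, edgeR, against -0.58 in the age contrast, or 0.05 without that library). Capg, an actin-capping protein, had 2.04 to 4.78 CPM in control and 4.85 to 15.0 CPM in K3 (log2 fold change 1.62, SE 0.30, adjusted p = 0.0012, edgeR, against 0.81 in the age contrast). Among those that fell, Tbx18, a transcription factor of mural cells and fibroblasts, had 2.63 to 5.61 CPM in control and 0.367 to 2.00 CPM in K3 (log2 fold change -1.87, SE 0.36, adjusted p = 0.0014, edgeR, against -0.63 in the age contrast). Pcolce, which helps to process collagen, had 7.74 to 11.8 CPM in control and 0.815 to 5.26 CPM in K3 (log2 fold change -1.73, SE 0.32, adjusted p = 0.0012, edgeR, against -0.73 in the age contrast). A p of at least 0.05 in the age contrast does not show that a gene did not change with age.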
